A study of Mus musculus with 3 samples.

Results

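The dynein genes described here were the 41 of 31054 annotated features whose symbols begin with Dnah and a digit, Dnaic, Dnal followed by a digit or i, Dnaaf, Dync or Dynl. They comprised 20 axonemal genes (5 heavy chains of the outer arm, 9 of the inner arm, Dnah14 whose place is unsettled, and 5 intermediate or light chains), 4 assembly factors named Dnaaf, 16 cytoplasmic genes (5 subunits of dynein 1, 2 of dynein 2 and 9 light chains shared with other complexes) and 1 antisense RNA, Dnah2os. The series holds droplet-based RNA profiles of single cells from 3 wild-type (WT) embryos of a C57BL/6 x 129 SvEv cross at embryonic day 8, labelled 0 to 2 somites, with 1 library per embryo and no treated or mutant group. Whole embryos were dissociated after their extraembryonic tissue had been removed, and transcripts were captured by their 3′ ends, so that UMI counts do not scale with transcript length and levels are compared between cells rather than between genes.

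Dyneins are motors that walk towards the minus end of microtubules. Axonemal dyneins form the outer and inner arms that bend a motile cilium, and their assembly factors fold and join the arm subunits in the cytoplasm before they enter the cilium. Cytoplasmic dynein 1 carries cargo through the cell body, and dynein 2 drives return transport inside cilia, motile or not. In the left–right organizer (LRO), a pit at the midline of the early embryo, rotating cilia drive a leftward fluid flow, and the outer arm heavy chains Dnah5 and Dnah11 are known for their part in this movement.

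The 3 libraries held 6579, 8621 and 8333 barcodes, of which 6129, 8116 and 7923 passed quality control (22168 cells), with 195477519, 145760007 and 166042809 UMIs. LRO cells were those with a UMI of at least 4 of the 6 markers Foxj1, Noto, Pifo, Fam183b, Cfap126 and 1110017D15Rik, none of which is a dynein gene. This gave 77, 79 and 108 cells in embryos 1, 2 and 3 (264 in all, or 1.26%, 0.973% and 1.36% of the cells), with a median depth of 29798, 17922 and 28131.5 UMIs. Of these, 152 cells held all 6 markers. LRO cells also held a median of 5 of the 6 markers of axial mesoderm and 4 of the 6 of gut endoderm, but 0 of the 6 erythroid markers. The other cells were placed by the same kind of marker list in 15 further lineages, from 91 primordial germ cells to 2608 extraembryonic endoderm cells, and 5301 cells remained unassigned. Between 14 and 20 cell barcodes that passed quality control were shared by each pair of libraries, and none of these marked an LRO cell in both. Extraembryonic endoderm cells were present although the tissue is described as removed, and the first embryo held 0 erythroid cells against 703 and 178 in the others.

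Axonemal dynein transcripts were concentrated in LRO cells in all 3 embryos. Their summed level was 426, 398 and 203 CPM (UMIs per 1000000 UMIs of the class) in the LRO cells of embryos 1, 2 and 3 (343 ± 121, SD, n = 3 embryos), against 27.3, 23.5 and 23.3 CPM in all other cells (24.7 ± 2.23). Much of the sum in other cells came from the light chain Dnal4, which had a median of 15.7 CPM over the non-LRO lineages. The LRO sums did not overlap with those of other cells, and the third embryo had the lowest LRO value. The LRO markers Foxj1 (180, 105 and 99.9 CPM in LRO cells) and Fam183b (454, 407 and 225 CPM) were also lowest in that embryo, and their part in the lower dynein level was not tested. Cytoplasmic dynein transcripts summed to 2659, 2667 and 2546 CPM in LRO cells and 2020, 1953 and 2079 CPM in other cells, a difference carried largely by the light chains. Within the cytoplasmic set, the 5 subunits of dynein 1 together had 250 ± 10.3 CPM in LRO cells and 260 ± 8.98 CPM in other cells.

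UMIs were summed per embryo over each class, and the 3 sums of LRO cells were compared with the 3 sums of other cells by edgeR's quasi-likelihood test with Benjamini-Hochberg adjustment over 15808 genes. Among all genes tested, 11.2% were higher and 6.55% were lower in LRO cells at an adjusted p of 0.05. Of the 41 dynein genes, 40 were tested, 24 were higher and 1 was lower. Dnah14, with 0.312 ± 0.287 CPM in LRO cells, was too low to be tested. Of the 19 axonemal genes tested, 17 were higher and 0 lower. Since 9 of the 17 passed the filter on low counts only through their level in LRO cells (Dnah3, Dnah5, Dnah6, Dnah7c, Dnah9, Dnah10, Dnah12, Dnaic2 and Dnali1), they could hardly have been tested without being higher. The other 8 (Dnah1, Dnah2, Dnah7a, Dnah7b, Dnah11, Dnaic1, Dnal1 and Dnal4) passed it in both classes. The P values measure the spread between 3 embryos.

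**Figure D1:**
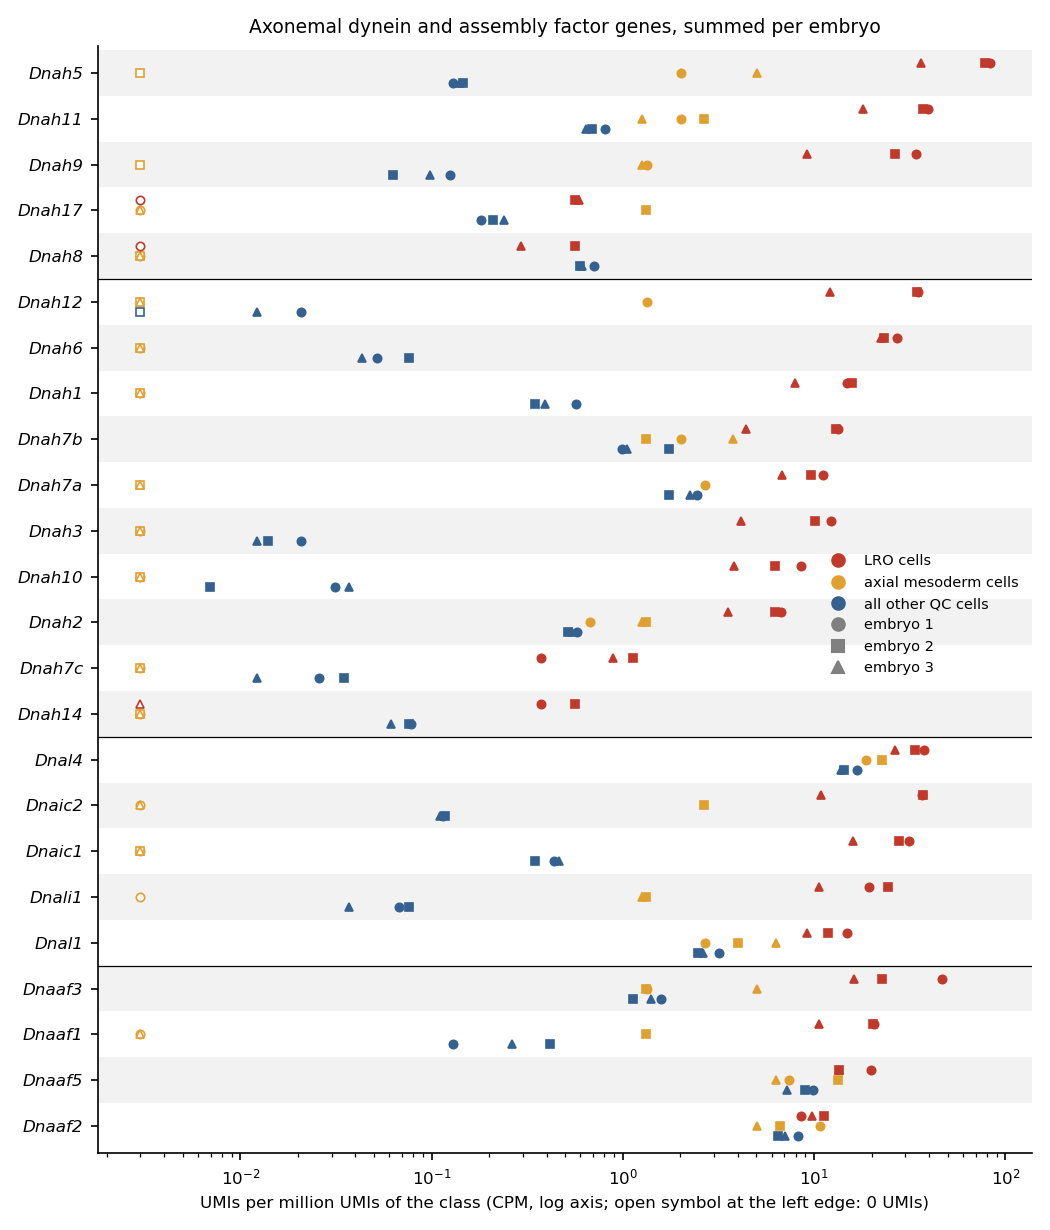
CPM (log axis) of the 20 axonemal genes and 4 assembly factors in each of 3 embryos, for LRO cells, axial mesoderm cells and all other cells. Each symbol is 1 embryo and open symbols mark 0. Dnah5 stood at 36.3 CPM or above in every LRO sum and at 0.146 CPM or below in the sums of all other cells.

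Among outer arm heavy chains, Dnah5 (chromosome 15, 28203752 to 28472052, plus strand, GRCm38) had 82.7, 78.0 and 36.3 CPM in LRO cells and 0.130, 0.146 and 0.141 CPM in other cells. The log2 fold change was 8.76 ± 0.33 (SE, adjusted p = 5.8e-08), and the groups lay far apart in every embryo. Dnah9, the other heavy chain that can pair with Dnah5, had 34.3, 26.6 and 9.14 CPM against 0.0951 ± 0.0311 CPM (log2 fold change 7.77 ± 0.50, adjusted p = 2.3e-06). Dnah11 (chromosome 12, 117877982 to 118199043, minus strand), whose loss is known to leave LRO cilia immotile, had 39.5, 37.3 and 18.0 CPM in LRO cells and 0.804, 0.688 and 0.646 CPM in other cells (5.35 ± 0.28, adjusted p = 5.6e-07). The remaining pair of outer arm heavy chains did not pass the test. Dnah8, known from sperm flagella, had 2 UMIs over all LRO cells and 0.639 ± 0.0624 CPM in other cells (−1.39 ± 0.77, adjusted p = 0.25). Dnah17, also a heavy chain of sperm, had 0, 0.565 and 0.590 CPM in LRO cells and 0.210 ± 0.0291 CPM in other cells (0.78 ± 0.88, adjusted p = 0.59).

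All 9 inner arm heavy chains were higher in LRO cells, with log2 fold changes from 2.00 to 10.86. The largest was that of Dnah12, with 35.0, 34.5 and 12.1 CPM in LRO cells and 0.0207, 0 and 0.0123 CPM in other cells (10.86 ± 0.58, adjusted p = 6.2e-07). Dnah6 differed least among embryos, with 27.2, 23.2 and 22.4 CPM against 0.0571 ± 0.0173 CPM (8.63 ± 0.27, adjusted p = 2.8e-08). Inner arms of these kinds set the shape of the ciliary beat. Dnah3 had 12.3, 10.2 and 4.13 CPM (8.87 ± 0.55, adjusted p = 1.7e-06). Dnah10, a heavy chain of the double-headed inner arm, had 8.57, 6.21 and 3.83 CPM (7.73 ± 0.54, adjusted p = 4.5e-06). Dnah1 had 14.9, 15.8 and 7.96 CPM in LRO cells and 0.437 ± 0.118 CPM in other cells (4.76 ± 0.35, adjusted p = 6.2e-06). Dnah2 had 6.70, 6.21 and 3.54 CPM against 0.544 ± 0.031 CPM (3.21 ± 0.33, adjusted p = 8.5e-05). Its antisense RNA Dnah2os, which lies within Dnah2 on the opposite strand, had 0.745, 0 and 0.884 CPM in LRO cells and 0.806 ± 0.119 CPM in other cells (−0.44 ± 0.63, adjusted p = 0.70). The strand setting of the counting is not given in the sources used here.

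Dnah7a, Dnah7b and Dnah7c are near copies on chromosome 1. Of the 50-base words in the last 500 bases of their transcripts, 51.7%, 30.8% and 60.5% occur in another member of the trio, so that the split between them is uncertain. Dnah7b had 13.4, 13.0 and 4.42 CPM in LRO cells (2.88 ± 0.42, adjusted p = 0.00097), Dnah7a had 11.2, 9.60 and 6.78 CPM (2.00 ± 0.26, adjusted p = 0.00049), and Dnah7c had 6 UMIs in all (4.83 ± 0.88, adjusted p = 0.0041). Summed over the 3 genes, the level was 20.3 ± 7.10 CPM in LRO cells and 3.43 ± 0.101 CPM in other cells.

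The intermediate chains Dnaic1 and Dnaic2 anchor the outer arm to the microtubule doublet. Dnaic1 had 31.3, 27.7 and 15.9 CPM in LRO cells and 0.415 ± 0.0598 CPM in other cells (5.80 ± 0.28, adjusted p = 3.3e-07), and Dnaic2 had 36.5, 37.3 and 10.9 CPM against 0.114 ± 0.0037 CPM (7.80 ± 0.46, adjusted p = 1.2e-06). Dnali1, a light intermediate chain of inner arms, had 19.4, 24.3 and 10.6 CPM (8.08 ± 0.42, adjusted p = 5.2e-07). The light chains were less restricted. Dnal1, an outer arm light chain, had 14.9, 11.9 and 9.14 CPM in LRO cells and 2.77 ± 0.371 CPM in other cells (2.02 ± 0.23, adjusted p = 0.00019). Dnal4 had 37.6, 33.9 and 26.5 CPM against 16.7, 14.3 and 13.9 CPM (1.03 ± 0.14, adjusted p = 0.00059).

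The upstream sequences of Dnaic1 and Dnaic2 are shown because each holds an X-box, the motif bound by the RFX factors that act on ciliary genes. The sequences are RefSeq promoters of GRCm38.p6, taken from the 250 bases before the RefSeq start. They are printed 5′ to 3′ on the plus strand, with the X-box in capitals. They lie at chr4:41569544-41569793 (Dnaic1) and chr11:114727169-114727418 (Dnaic2).
Dnaic1: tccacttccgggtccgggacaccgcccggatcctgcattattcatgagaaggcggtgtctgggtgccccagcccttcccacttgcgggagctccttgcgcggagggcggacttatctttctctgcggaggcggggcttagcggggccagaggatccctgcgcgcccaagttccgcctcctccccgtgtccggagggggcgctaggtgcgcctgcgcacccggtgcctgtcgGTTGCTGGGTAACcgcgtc
Dnaic2: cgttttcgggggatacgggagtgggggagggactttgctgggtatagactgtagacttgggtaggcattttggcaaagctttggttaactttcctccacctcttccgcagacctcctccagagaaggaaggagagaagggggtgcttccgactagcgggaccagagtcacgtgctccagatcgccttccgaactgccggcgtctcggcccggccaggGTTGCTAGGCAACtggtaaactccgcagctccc
In Dnaic1 the motif ended 6 bases before the RefSeq start, and in Dnaic2 20 bases before it. The GENCODE gene starts, at 41569775 and 114727408, lie within the printed regions, so that these distances hold for RefSeq alone. That of Dnaic1 falls on the X-box itself. Promoters were matched for 33 members (35 promoters). A strict X-box consensus, searched on both strands, was found in 3 of 19 axonemal promoters (Dnaic1, Dnaic2 and Dnah2), in 1 of 13 cytoplasmic promoters (Dynlrb2), in 1 of 3 of assembly factors (Dnaaf2) and in 2.24% of all 32851 promoters. An X-box can contain the core GTTGCC. This core was found in 5 of 19 axonemal and 5 of 13 cytoplasmic promoters and in 10.4% of all. The axonemal ones included the near copies Dnah7a, Dnah7b and Dnah7c. Overlapping promoters of Dync1i2 hold the same GTTGCC, which was counted for each. The letters TGTTTA, a core of forkhead motifs, were found in 5 of 19, 2 of 13 and 12.0%. The RefSeq regions of Dnah7b, Dnah8, Dnah17, Dnal4 and Dync2h1 lie within the GENCODE gene. Those of Dnah7b (GTTGCC), Dnah8 and Dnah17 (TGTTTA) are among the promoters counted with a motif. A match is a description of the sequence, and binding was not measured.

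Of the 4 assembly factors, Dnaaf1, Dnaaf3 and Dnaaf5 were higher in LRO cells, though Dnaaf1 passed the filter only through its level there. Dnaaf1 had 20.5, 20.3 and 10.6 CPM against 0.270 ± 0.144 CPM in other cells (5.88 ± 0.47, adjusted p = 1.2e-05). Dnaaf3 had 46.9, 22.6 and 16.2 CPM against 1.37 ± 0.235 CPM (4.29 ± 0.34, adjusted p = 1.2e-05). Both act in the folding and joining of arms. Dnaaf5 had 19.7, 13.6 and 13.6 CPM in LRO cells and 9.88, 8.99 and 7.24 CPM in other cells (0.77 ± 0.19, adjusted p = 0.023). This call was lost without each of the embryos in turn and with a gate of 3 markers, where the adjusted p reached 0.11. Dnaaf2 had 9.86 ± 1.37 and 7.25 ± 0.891 CPM (0.35 ± 0.19, adjusted p = 0.24). Its exons share 757 bases with those of Gm49383 and 700 with those of Gm49384 on the same strand. The effect of this overlap on its count was not tested.

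Most cytoplasmic genes differed little between LRO and other cells, and 4 of 16 were higher. Dynlrb2, a roadblock light chain, was the exception in size. It had 207, 147 and 87.3 CPM in LRO cells and 0.306, 0.194 and 0.209 CPM in other cells (9.15 ± 0.34, adjusted p = 5.8e-08), so that by symbol a cytoplasmic light chain had the second-largest fold change of the 41 genes. Its paralog Dynlrb1 had 169, 110 and 188 CPM in LRO cells and 147, 106 and 171 CPM in other cells (0.07 ± 0.21, adjusted p = 0.85), with overlapping groups.

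Both dynein 2 subunits with a Dync symbol were higher in LRO cells. Dync2h1, the heavy chain, had 118, 105 and 66.6 CPM against 27.3, 20.2 and 20.2 CPM (2.00 ± 0.19, adjusted p = 3.7e-05). Dync2li1, the light intermediate chain, had 69.6, 54.2 and 45.1 CPM against 13.5, 12.4 and 11.5 CPM (2.09 ± 0.14, adjusted p = 4.0e-06). The groups did not overlap for either gene, though both were well above 0 outside the LRO, where primary cilia are widespread. The further dynein 2 subunits Wdr34 (2.16 ± 0.19, adjusted p = 2.5e-05), Wdr60 (2.30 ± 0.15, adjusted p = 2.2e-06) and Tctex1d2 (1.76 ± 0.11, adjusted p = 1.4e-06) were higher too, 3 of 3.

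None of the 5 dynein 1 subunits was higher. Dync1h1, the heavy chain, had 72.6, 77.4 and 66.3 CPM in LRO cells and 79.7, 76.5 and 82.0 CPM in other cells (−0.23 ± 0.09, adjusted p = 0.12, or 0.033 with the embryo as a block). Dync1li1, a light intermediate chain, had 50.3, 58.2 and 46.6 CPM against 60.9, 62.5 and 59.1 CPM (−0.33 ± 0.10, adjusted p = 0.0496). This was the only lower call, and it held in 6 of 13 alternatives and in none that left out an embryo. Its paralog Dync1li2 had 33.0 ± 6.41 and 25.2 ± 1.34 CPM (0.28 ± 0.14, adjusted p = 0.18). The intermediate chain Dync1i2 had 91.7 ± 9.09 and 92.9 ± 8.45 CPM (−0.09 ± 0.11, adjusted p = 0.63), and its paralog Dync1i1 had 1.21 ± 0.475 and 1.31 ± 0.143 CPM (−0.26 ± 0.42, adjusted p = 0.73).

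Dynll1, a light chain of dynein and of many other complexes, had 1629, 1734 and 1711 CPM in LRO cells and 1381, 1322 and 1400 CPM in other cells. The groups did not overlap, and the log2 fold change of 0.22 ± 0.08 had an adjusted p of 0.086 (0.0092 with the embryo as a block and 0.012 by DESeq2). Dynll2 had 135 ± 19.5 and 143 ± 23.4 CPM (−0.18 ± 0.15, adjusted p = 0.46), and the Tctex-type light chain Dynlt3 had 21.3 ± 1.90 and 20.9 ± 2.91 CPM (−0.06 ± 0.16, adjusted p = 0.83). Of the Dynlt1 copies, Dynlt1f had 54.8, 68.9 and 45.4 CPM in LRO cells and 36.6 ± 1.95 CPM in other cells (0.51 ± 0.13, adjusted p = 0.026), a call that was lost without each embryo in turn. Dynlt1b and Dynlt1c share 100% of the words at their transcript ends with other copies and Dynlt1f 88.9%, so that the division of UMIs between them is uncertain. Dynlt1b (1.24 ± 1.14 CPM, adjusted p = 0.88), Dynlt1c (0.911 ± 0.715 CPM, adjusted p = 0.82) and Dynlt1a (12.4 ± 2.32 CPM, adjusted p = 0.44) did not pass the test. The 4 copies summed to 70.9 ± 13.2 CPM in LRO cells and 48.8 ± 2.60 CPM in other cells.

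**Figure D2:**
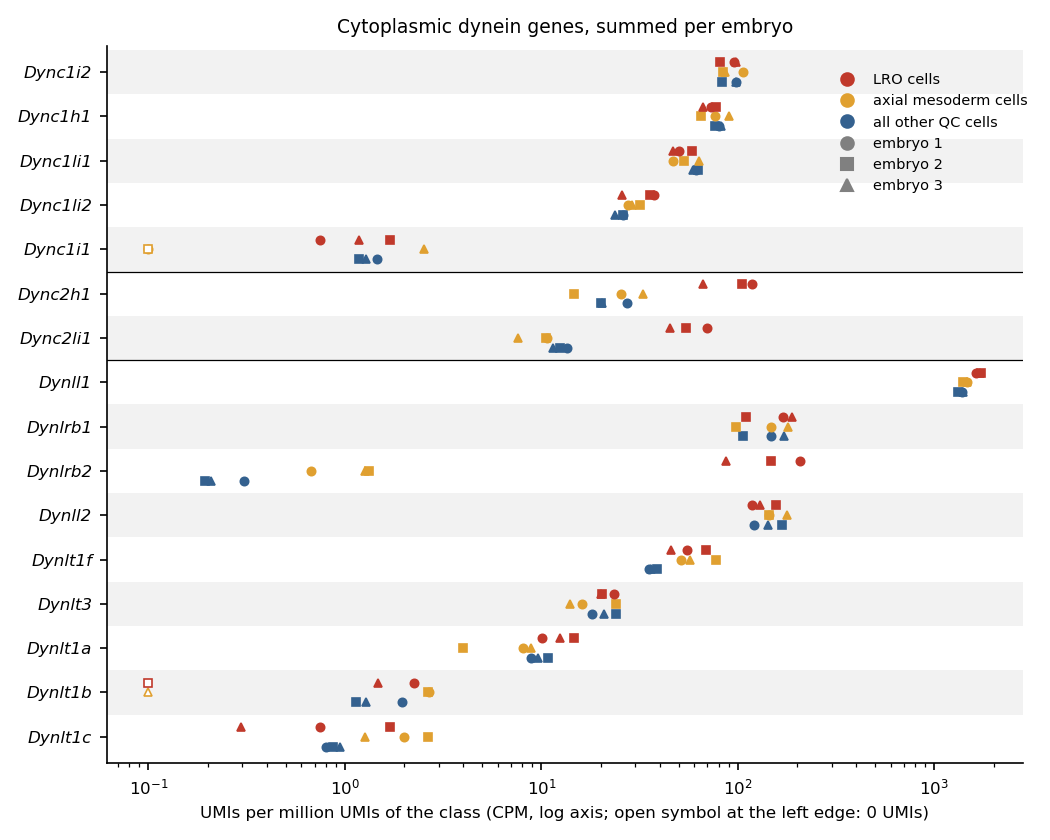
CPM (log axis) of the 16 cytoplasmic dynein genes in each of 3 embryos, for LRO cells, axial mesoderm cells and all other cells, with 1 symbol per embryo. Dynlrb2, Dync2h1 and Dync2li1 stand apart in LRO cells, while Dynlrb1 has 169, 110 and 188 CPM there and 147, 106 and 171 CPM in other cells.

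The roadblock pair is shown in full because its members, which encode chains of equal length, differed so much in level. Dynlrb1 lies on chromosome 2 (155236533 to 155250277, plus strand) and Dynlrb2 on chromosome 8 (116504974 to 116515915, plus strand). The coding sequences are from GENCODE transcripts of GRCm38, start to last codon before the stop, with capitals at the bases that differ between them.
Dynlrb1: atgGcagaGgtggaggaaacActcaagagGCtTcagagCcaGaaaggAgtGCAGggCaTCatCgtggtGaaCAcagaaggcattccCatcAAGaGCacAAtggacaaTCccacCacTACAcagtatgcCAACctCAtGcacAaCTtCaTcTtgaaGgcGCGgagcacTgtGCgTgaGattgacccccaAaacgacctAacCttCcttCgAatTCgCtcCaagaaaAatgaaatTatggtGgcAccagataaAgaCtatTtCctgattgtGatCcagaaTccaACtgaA
Dynlrb2: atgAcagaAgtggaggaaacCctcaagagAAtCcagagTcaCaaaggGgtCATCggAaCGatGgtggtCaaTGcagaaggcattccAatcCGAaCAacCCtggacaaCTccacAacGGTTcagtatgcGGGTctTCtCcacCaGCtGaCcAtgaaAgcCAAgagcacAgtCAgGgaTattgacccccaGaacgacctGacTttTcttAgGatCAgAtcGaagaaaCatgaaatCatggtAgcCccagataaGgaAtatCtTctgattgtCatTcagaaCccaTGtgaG
Each runs to 288 bases, of which 81 differ (71.9% identity). Of these differences, 52 are at the third position of a codon and 29 at the first or second. None of the 50-base words at the transcript ends is shared between them, so that UMIs can be assigned to either. The region before the Dynlrb2 start (RefSeq, GRCm38.p6, chr8:116504765-116505003, plus strand) holds an X-box that contains GTTGCC, in capitals, and is shown because Dynlrb2 was the 1 cytoplasmic member with that motif.
Dynlrb2 promoter: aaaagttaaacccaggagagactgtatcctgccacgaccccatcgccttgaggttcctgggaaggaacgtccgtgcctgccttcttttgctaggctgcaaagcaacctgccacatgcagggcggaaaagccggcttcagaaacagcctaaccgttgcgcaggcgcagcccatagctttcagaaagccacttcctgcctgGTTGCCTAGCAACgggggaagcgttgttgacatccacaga
The X-box ended 38 bases before the RefSeq start, and the printed bases stop short of that start. The GENCODE start given above lies within the X-box, so that this distance holds for RefSeq alone. In LRO cells Dynlrb2 made up 55.1%, 57.1% and 31.7% of the UMIs of the pair in embryos 1, 2 and 3. In every other lineage and embryo Dynlrb1 held nearly all of them, and the highest Dynlrb2 share was 1.33%, in the axial mesoderm of embryo 2. Primordial germ cells had 0 Dynlrb2 UMIs in all 3 embryos, against 156, 33 and 167 UMIs of Dynlrb1. The level of Dynlrb1 varied between embryos in the same order in each of the lineages with 3 embryos (lowest in embryo 2, highest in embryo 3). Its mean ran from 121 CPM in erythroid cells, from embryos 2 and 3 alone, to 156 CPM in LRO cells. These CPM are without the normalization used in the tests.

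**Figure D3:**
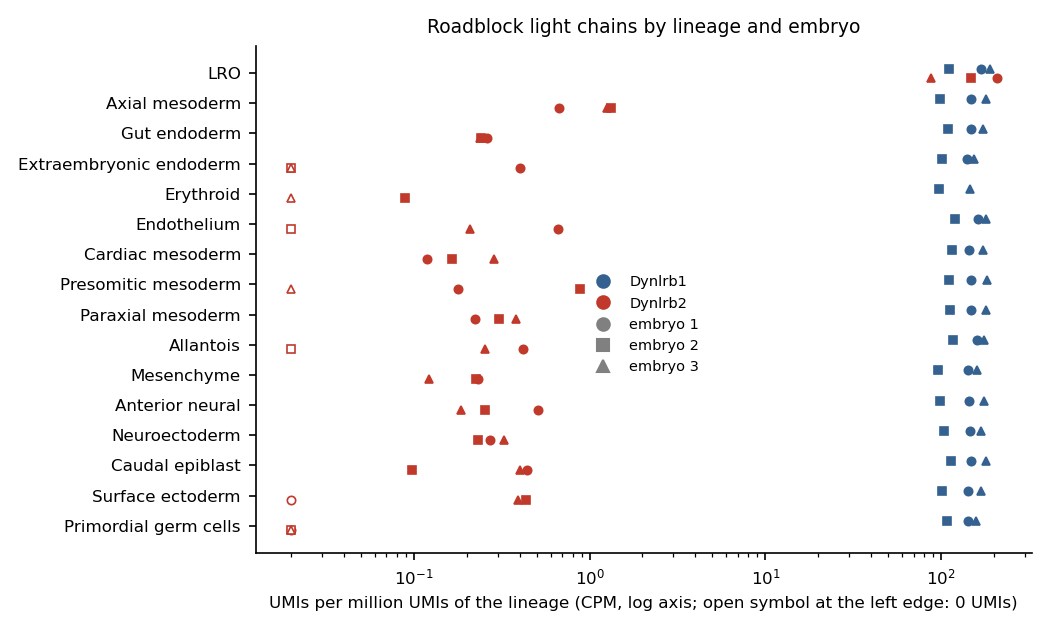
CPM of Dynlrb1 and Dynlrb2 in LRO cells and the 15 other lineages, with 1 symbol per embryo on a log axis. Dynlrb1 lies near one level in every lineage, while the mean of Dynlrb2 falls from 147 CPM in LRO cells to 1.09 CPM in axial mesoderm, the next lineage.

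Axial mesoderm, the notochord and prechordal plate, adjoins the LRO and shares markers with it, and was therefore compared with LRO cells on its own (40, 45 and 34 cells). Of 9452 genes tested, 5.84% were higher and 2.54% lower in LRO cells. Of the 29 dynein genes tested, 16 were higher and 0 lower by edgeR (19 had an unadjusted p under 0.05). Axonemal genes summed to 33.5, 37.1 and 42.9 CPM in axial mesoderm, below every LRO sum. Among them 11 of 12 tested were higher, but all of these 11 passed the filter only through LRO cells, so that their number follows largely from the filter. Dnal4, which passed in both, had 18.8, 22.5 and 22.7 CPM in axial mesoderm (0.61 ± 0.22, adjusted p = 0.12).

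Several arm genes had no UMI in axial mesoderm. Against a floor of 3 UMIs over the group, Dnah6 was at least 24.5-fold, Dnaic1 at least 24.1-fold, Dnah1 at least 12.3-fold, Dnah3 at least 8.39-fold and Dnah10 at least 6.07-fold higher in LRO cells. Where 1 to 3 UMIs were found, the ratios were 38.9 for Dnaic2 (95% interval 10.6 to 324) and 38.0 for Dnah12 (10.4 to 316). They were 25.4 for Dnali1 (6.88 to 212), 21.9 for Dnah9 (7.38 to 107) and 5.29 for Dnah2 (1.69 to 26.7). Dnah7c, with 6 UMIs in LRO cells and 0 in axial mesoderm, had a bound of only 0.775-fold, so that no difference can be read from it. Dnah7b, not tested here, had 2.01, 1.33 and 3.79 CPM in axial mesoderm and 13.4, 13.0 and 4.42 CPM in LRO cells. Intervals and floors cover counting error only. Dnah5 had 2.01, 0 and 5.05 CPM in axial mesoderm (4.74 ± 0.50, adjusted p = 3.9e-06), and Dnah11 had 2.01, 2.65 and 1.26 CPM (3.90 ± 0.48, adjusted p = 2.0e-05). Dnah7a had 2.68, 0 and 0 CPM (2.72 ± 0.63, adjusted p = 0.0094), and its adjusted p was 0.12 without embryo 2. Dnal1 had 2.68, 3.98 and 6.32 CPM (1.54 ± 0.42, adjusted p = 0.027), and its call was lost in 6 of 11 alternatives, where the adjusted p reached 0.405.

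In axial mesoderm, Dynlrb2 had 0.670, 1.33 and 1.26 CPM from 3 UMIs, so that the ratio of LRO cells to it was 143 (48.9 to 696). Dync2h1 had 25.4, 14.6 and 32.8 CPM there (1.94 ± 0.25, adjusted p = 2.9e-05) and Dync2li1 10.7, 10.6 and 7.58 CPM (2.49 ± 0.25, adjusted p = 2.9e-06). These 3 were the cytoplasmic genes that rose, of 13 tested, and Dynlrb2 passed the filter only through LRO cells, as did Dnaaf1, Dnaaf2 and Dnaaf3. Dnaaf3 had 1.34, 1.33 and 5.05 CPM (3.56 ± 0.57, adjusted p = 0.00033), and Dnaaf1 1 UMI, a ratio of 49.2 (8.67 to 1958). Dynll1 had 1463, 1395 and 1473 CPM (0.21 ± 0.10, adjusted p = 0.24, or 0.048 with the embryo as a block).

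A gate that used no gene of cilia was also tried, with at least 4 of Noto, Nodal, Dand5, T, Foxa2 and Shh. It took 87, 89 and 88 cells. Noto, T, Foxa2 and Shh are also on the marker list of axial mesoderm, so that cells of that class could pass this gate. In the other direction, LRO cells of the main gate that failed this one could be placed in axial mesoderm or another class. This gate left 28, 37 and 35 axial mesoderm cells, against 40, 45 and 34 with the main gate. Against all other cells, 17 axonemal genes were again higher, and the log2 fold change was 7.73 for Dnah5 (adjusted p = 2.0e-08) and 7.95 for Dynlrb2 (adjusted p = 1.3e-08). Against axial mesoderm, where 9 axonemal genes were called, it was 2.12 for Dnah5 (adjusted p = 9.6e-05) and 2.31 for Dynlrb2 (adjusted p = 2.0e-05), lower than with the gate of 6 markers. Dnaic1, with 0 UMIs in axial mesoderm under the gate of 6 markers, had a log2 fold change of 2.15 here against 8.47 there. The part of cells that moved between the classes in these lower values was not tested. For this gate, the class through which each gene passed the filter on low counts was not examined. The share of all genes called was not counted. Genes that passed only through LRO cells could hardly have been tested without being higher.

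Axonemal transcripts were higher in cells that held more LRO markers, though not at each step in each embryo. Pooled over embryos, the axonemal sum was 24.6 CPM in cells with 0 of the 6 markers, 26.2 with 1, 29.9 with 2, 60.9 with 3, 94.0 with 4, 210 with 5 and 455 with 6. From 3 to 4 markers it went from 73.3 to 64.1 CPM in embryo 1, from 61.8 to 131 CPM in embryo 2 and from 37.6 to 94.7 CPM in embryo 3. Cells with all 6 markers had 532, 584 and 304 CPM in the 3 embryos, so that embryo 3 was also lowest within that class. These cells share libraries, and the values are a description.

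Crown cells at the rim of the LRO express Dand5 and Nodal and bear immotile cilia, whereas the cilia of the pit rotate. To compare them, LRO cells with a UMI of both genes (40, 23 and 31 cells) were set against LRO cells with neither (21, 39 and 53 cells). Of 7977 genes, 0.263% were higher and 0.0251% lower in crown-marked cells. Of 30 dynein genes tested, 0 were called by edgeR or by DESeq2 and 0 had an unadjusted p under 0.05. Dnah5 had 94.4, 81.1 and 40.8 CPM in crown-marked cells and 63.5, 96.8 and 35.5 CPM in unmarked cells (0.18 ± 0.31), with overlapping groups. Dnah11 had 47.6, 40.5 and 20.4 against 34.4, 51.9 and 15.6 CPM (0.17 ± 0.37). Dynlrb2 had 207, 181 and 100 against 205, 168 and 85.9 CPM (0.08 ± 0.27). The largest difference was that of Dnah3, with 9.37, 11.6 and 1.94 against 23.8, 12.6 and 6.23 CPM (−0.88 ± 0.57, unadjusted p = 0.14), lower in each embryo. A p that misses the threshold does not show that the cells were alike, and the standard errors ranged from 0.13 (Dynll1) to 0.57 (Dnah3) on the log2 scale. Deeper cells are also more often marked.

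Across single LRO cells, Dnah5 was detected in 79.2%, 72.2% and 61.1% of cells and Dynlrb2 in 92.2%, 73.4% and 73.1%. In erythroid cells, which lack motile cilia, Dnah5 was found in 0 of 881 cells, which allows a share of up to 0.341% for cells with a UMI, though not for cells that express it, and Dynlrb2 in 1 of 881 (0.114%). The median depth was 15549 UMIs in erythroid and 25915 in LRO cells. After thinning to 5000 UMIs, which left out 12 LRO cells, the mean shares were 31.7% for Dnah5 and 46.8% for Dynlrb2. Dnah11 was found in 50.8% ± 11.7 of LRO cells (21.8% after thinning) and 0.281% ± 0.397 of erythroid cells. Dync2h1 was found in 86.5% ± 8.17 of LRO cells, 38.3% ± 17.8 of axial mesoderm cells and 9.48% ± 2.28 of erythroid cells. Dynll1 was present in 100% of LRO cells and 99.9% of erythroid cells. Over the 20 axonemal genes the median share of LRO cells was 27.9%, or 8.37% with cells thinned. For the median gene, most LRO cells thus had no UMI. Whether such cells lacked the transcript or it went undetected was not tested.

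A heavy chain of the outer arm was found in 224 of 264 LRO cells (84.8%), one of the inner arm in 201 (76.1%) and both in 183 (69.3%). For both together the shares were 85.7%, 69.6% and 57.4% in embryos 1, 2 and 3. The parts of depth and of the axonemal level in this order were not tested. In 133 cells (50.4%) these came with Dnaic1 or Dnaic2. In axial mesoderm both heavy chain kinds were found in 3 of 119 cells (2.52%), and in erythroid cells in 1 of 881 (0.114%). Dynlrb1 and Dynlrb2 were found together in 194 LRO cells (73.5%), so the paralogs were not held by separate cells. Only 9 LRO cells (3.41%) had no axonemal UMI. Cells held a median of 7, 5 and 4 axonemal genes in the 3 embryos. At least 5 were found in 57.2% of LRO cells but in only 2 of the 21904 cells outside the gate, 1 anterior neural and 1 neuroectoderm cell, both with 0 LRO markers.

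Axonemal and cytoplasmic transcripts scaled differently with the depth of a cell. The LRO cells of each embryo were divided at their median UMI count, a split that makes total UMIs differ by construction (their mean by 3.50 ± 0.491 times, n = 3 embryos). Mean axonemal UMIs per cell were 17.4, 9.36 and 6.20 below the median and 12.3, 8.50 and 6.57 above it, a ratio of 0.892 ± 0.177. Cytoplasmic UMIs per cell were 58.4, 33.3 and 44.9 below and 126, 85.6 and 115 above, a ratio of 2.43 ± 0.235. The deeper cells thus held about as many axonemal UMIs as the shallower ones, and more than 2 times as many cytoplasmic UMIs. By gene, the ratio was 0.796 ± 0.146 for Dnah5, 0.945 ± 0.265 for Dnah11 and 0.725 ± 0.139 for Dynlrb2. It was 1.35 ± 0.287 for Dync2h1, 2.74 ± 0.396 for Dynlrb1 and 3.81 ± 1.15 for Dync1h1, and 2.52, 2.90 and 2.82 for Dynll1 in the 3 embryos. Dynlrb2 lay with Dnah5 and Dnah11, and its paralog Dynlrb1 with Dynll1. Ratios of the remaining light chains were not computed. Dynll1 held 13248 of the 20497 cytoplasmic UMIs of LRO cells, so that it weighs most in the cytoplasmic ratio. Cells were gated by having UMIs of 6 ciliary or LRO genes, which a shallow cell meets only where those genes are high, and the part of this in the ratios was not tested.

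**Figure D4:**
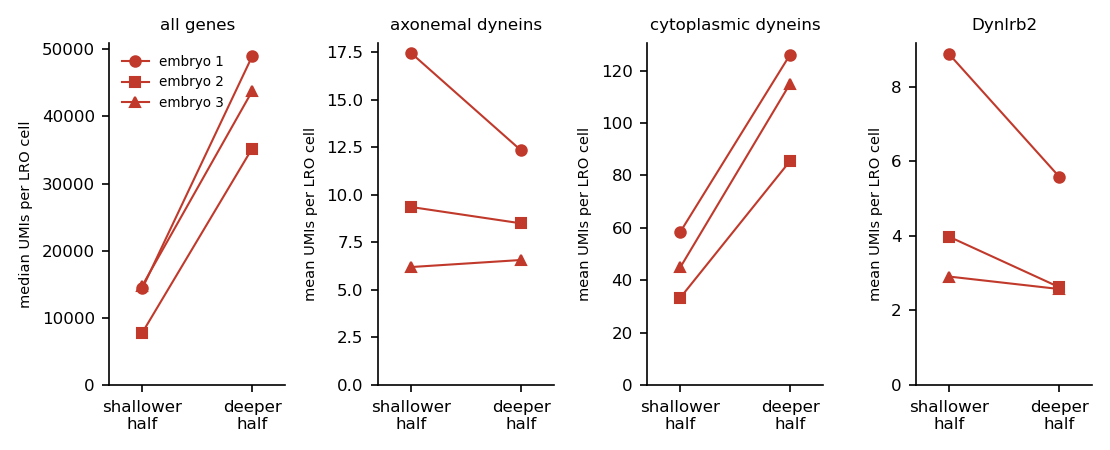
Median (all genes) or mean (dyneins) UMIs per LRO cell in cells below and above the median depth of their embryo, for all genes, axonemal genes, cytoplasmic genes and Dynlrb2, with 1 line per embryo. The mean of total UMIs rises 3.50 ± 0.491 times, whereas the axonemal lines stay near their level (ratio 0.892 ± 0.177).

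Outside the LRO, each of the 15 lineages was compared with the mean of the others in 1 fit of 14498 genes, without LRO cells. Of the dynein genes, 10 axonemal, 16 cytoplasmic, 4 assembly genes and Dnah2os could be tested, giving 98 calls, 56 higher and 42 lower. This is 12.0% and 9.03% of their 465 tests, below the 16.8% and 13.1% of all genes over the same lineages. Cytoplasmic genes took 56 of these calls, higher in 12.9% and lower in 10.4% of their 240 tests, also below the shares of all genes. Axonemal genes took 24 calls in 150 tests. Of the 98 calls, 39 held in all the alternatives run for them. With cells thinned to 5000 UMIs, 31 of the higher and 25 of the lower calls could still be tested, of which 14 and 11 kept their call. The lineages through which each gene passed the filter on low counts were not examined. A gene that passed only through the lineage where it is high could hardly have been tested without being higher there.

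The assembly factor Dnaaf3 reached a level in primordial germ cells that lay within its range in LRO cells (16.2 to 46.9 CPM). It had 25.6, 22.9 and 28.5 CPM in the germ cells (31, 15 and 45 cells), against a median of 1.27 CPM over the non-LRO lineages (4.58 ± 0.27, adjusted p = 8.6e-16, higher in every embryo). In this lineage 5.15% of all genes were called higher and 5.1% lower. Dnaaf3 was found in 47.2% ± 0.993 of germ cells and 49.7% ± 15.5 of LRO cells, and in 0.565% ± 0.00509 of erythroid cells. None of the 10 axonemal genes tested was called in germ cells, and Dnah5 had 0 UMIs there. Exons of the neighbouring cardiac troponin gene Tnni3 share 86 bases with those of Dnaaf3 on the same strand. The effect of this overlap on the count of Dnaaf3 was not tested. Tnni3 had 9.94 ± 8.49 CPM in germ cells, 4.84, 4.52 and 3.24 CPM in LRO cells and 31.5 ± 2.69 CPM in erythroid cells, where Dnaaf3 was lowest at 0.323 ± 0.0459 CPM.

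Dync1i1, an intermediate chain of dynein 1 best known from neurons, was highest in surface ectoderm, with 7.28, 8.22 and 4.68 CPM (2.98 ± 0.28, adjusted p = 1.3e-10, beside 7.46% of all genes higher and 5.29% lower there). Germ cells followed with 3.65, 9.81 and 5.69 CPM (2.61 ± 0.50, adjusted p = 0.00037), and the spreads of these lineages overlapped. Caudal epiblast had 2.98, 2.54 and 3.09 CPM (1.69 ± 0.23, adjusted p = 3.1e-07, beside 14.6% of all genes). Its level in LRO cells, 1.21 ± 0.475 CPM, was sixth among the lineages. In extraembryonic endoderm it fell by 2.17 ± 0.42 on the log2 scale (adjusted p = 2.3e-05), a call lost in 3 of 9 alternatives, and erythroid cells had 1 UMI. The paralog Dync1i2 ranged only from 53.6 ± 6.19 CPM in erythroid cells to 112 ± 14.7 CPM in mesenchyme.

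Extraembryonic endoderm, in which 37.3% of all genes were called higher and 32.3% lower, had calls for 19 of the 31 dynein genes, 10 higher and 9 lower. Dynlt3 had 57.9, 52.3 and 51.0 CPM there (1.89 ± 0.09, adjusted p = 4.3e-21) and 32.2, 38.2 and 33.4 CPM in gut endoderm (0.95 ± 0.10, adjusted p = 4.1e-10, beside 26.0% of all genes), with no overlap between these and LRO cells. Dnaaf1, otherwise near 0 outside the LRO, had 0.699, 1.86 and 1.33 CPM (3.76 ± 0.40, adjusted p = 3.5e-10). Whether Dnaaf1 passed the filter through any other lineage was not examined. Dnah7b had 2.60, 5.12 and 2.76 CPM (2.24 ± 0.25, adjusted p = 3.6e-10), whereas Dnah7a was lower at 0.513 ± 0.224 CPM (−1.58 ± 0.31, adjusted p = 2.9e-05). The division of reads between these near copies is uncertain. Dynll1 was lower at 1048 ± 10.9 CPM (−0.20 ± 0.05, adjusted p = 0.00013), and Dynll2 higher at 192 ± 21.5 CPM (0.68 ± 0.10, adjusted p = 2.3e-07).

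Erythroid cells, from embryos 2 and 3 alone and with 30.1% of all genes higher and 29.6% lower, had Dynll2 at 251 and 241 CPM, the highest of any lineage (1.19 ± 0.12, adjusted p = 6.0e-11). They had the lowest dynein 2 levels, with Dync2h1 at 7.63 and 5.22 CPM (−1.33 ± 0.19, adjusted p = 1.8e-07) and Dync2li1 at 3.20 and 4.35 CPM (−1.34 ± 0.19, adjusted p = 1.5e-07). Paraxial mesoderm had the highest Dync2li1 outside the LRO, with 19.4, 19.0 and 16.8 CPM (0.81 ± 0.09, adjusted p = 1.2e-08, beside 13.8% of all genes higher and 8.83% lower), and presomitic mesoderm the highest Dync2h1, with 32.2, 31.8 and 26.3 CPM (0.55 ± 0.11, adjusted p = 0.00022, beside 13.3% higher and 9.42% lower). Even these were below every LRO value. In endothelium, where 22.4% of genes were higher and 21.8% lower, Dnah8 had 0.658, 2.99 and 1.87 CPM (2.10 ± 0.55, adjusted p = 0.0020), a call lost without embryo 2.

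Axonemal genes gave 14 higher calls (9.33%) and 10 lower calls (6.67%) in 150 tests, against 16.8% and 13.1% of all genes. Dnah11 had 1.70, 2.78 and 2.50 CPM in gut endoderm (2.25 ± 0.31, adjusted p = 1.1e-07) and 1.85, 1.76 and 1.34 CPM in presomitic mesoderm (1.78 ± 0.33, adjusted p = 6.8e-05). Cardiac mesoderm had 2 UMIs of it. Dnah2 had 1.80, 1.66 and 1.70 CPM in mesenchyme (2.00 ± 0.30, adjusted p = 1.7e-06, beside 17.7% of all genes higher there). Its antisense RNA Dnah2os was highest in gut endoderm instead, with 2.15, 2.90 and 3.93 CPM (2.93 ± 0.31, adjusted p = 1.0e-09). Dnah7a had 3.99 ± 0.309 CPM in cardiac mesoderm (1.37 ± 0.24, adjusted p = 3.0e-05, beside 11.8% of all genes higher and 6.44% lower) and 3.97 ± 0.654 CPM in neuroectoderm (1.39 ± 0.23, adjusted p = 1.3e-05, beside 14.5%). In axial mesoderm, where 9.97% of genes were higher and 7.64% lower, Dnah5 was called from 7 UMIs, 0 of them in embryo 2 (4.81 ± 1.11, adjusted p = 0.0020). Whether Dnah5 passed the filter through any other lineage was not examined either. Mesenchyme had the highest dynein 1 heavy chain, with Dync1h1 at 100, 91.5 and 103 CPM (0.29 ± 0.06, adjusted p = 0.00012), and the highest Dync1li1, at 79.5 ± 2.17 CPM (0.40 ± 0.06, adjusted p = 7.3e-07).

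**Figure D5:**
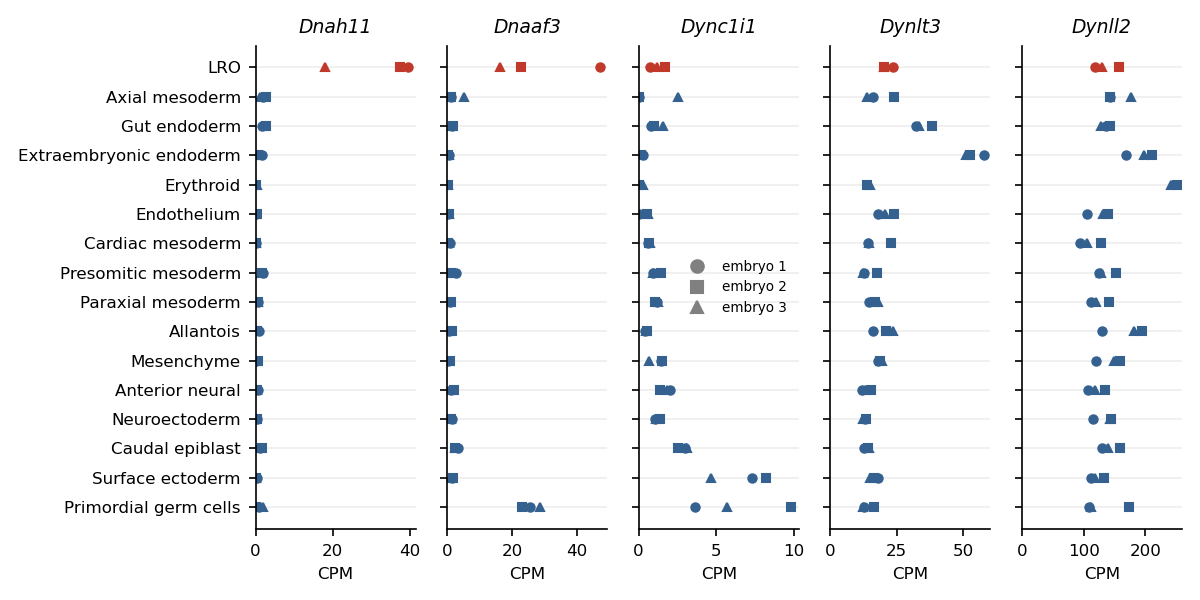
CPM (linear axis) of Dnah11, Dnaaf3, Dync1i1, Dynlt3 and Dynll2 in LRO cells and 15 other lineages, with 1 symbol per embryo. Dnaaf3 reaches 25.6 ± 2.79 CPM in primordial germ cells, near its LRO mean of 28.6 CPM, whereas Dnah11 is 31.6 CPM in LRO cells and 2.33 CPM in gut endoderm, the next lineage.

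Partners of the dynein arms and further axonemal genes, under other symbols, were read in the same comparison of LRO with other cells. In it, 11.2% of all genes were higher and 6.55% lower. The class through which these genes passed the filter on low counts was not examined. Any that passed only through LRO cells could hardly have been tested without being higher. All 6 genes of outer arm docking and attachment were higher, led by Ttc25 (6.69 ± 0.24, adjusted p = 4.6e-08) and Armc4 (6.42 ± 0.29, adjusted p = 2.1e-07). Of 10 further assembly factors tested, 7 were higher and 0 lower, among them Lrrc6 (7.21 ± 0.29, adjusted p = 9.4e-08) and Zmynd10 (4.45 ± 0.48, adjusted p = 0.00010). Ruvbl1 and Pih1d1, which also serve other complexes, had 0.15 and 0.10 and did not pass. All 3 tested genes of a list of further axonemal proteins, not all of them arm subunits, were higher. They included Dnajb13 (8.84 ± 0.25, adjusted p = 2.2e-08) and Wdr63 (7.79 ± 0.49, adjusted p = 2.0e-06). So were 2 of 2 Tctex-type chains, Tctex1d4 (9.26 ± 0.61, adjusted p = 2.6e-06) and Tctex1d1 (6.40 ± 0.13, adjusted p = 7.4e-09). Against this, of 28 genes of dynactin and cargo adaptors, which work with cytoplasmic dynein 1, only Hap1 was higher (2.04 ± 0.43, adjusted p = 0.0092) and Ndel1 (−0.53 ± 0.15, adjusted p = 0.035) and Actr1a (−0.52 ± 0.16) were lower. These counts are near or below the shares of all genes. Their median log2 fold change was −0.12, and that of all genes tested was −0.05.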

How the data were processed

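Single-cell RNA was captured from 3 embryos with the 10x single cell 3′ v3 protocol. The authors aligned reads to mm10 with EGFP added and deposited raw UMI counts for every barcode that Cell Ranger (version 3.1.0, per the submitters' processing notes) called a cell, without normalization. Depth per library and cell is given with the results. From these counts, cells with 1500 to 8500 genes (7500 in embryo 2) and at most 10% mitochondrial UMIs were kept, the limits of the study's methods. Doublets were not removed in the main results. Scrublet in scanpy (version 1.11.5) called 3 cells, so the cells in its top 6% of scores were left out as an alternative. LRO cells were set first. Every other cell was placed in the lineage whose markers had the highest mean standardised log level, among lists with at least 4 of 6 markers detected. This scoring was settled after cell numbers were seen. The members and the gene lists were chosen with earlier results of these data known.

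UMIs were summed per embryo and class (at least 10 cells) and tested with edgeR (version 4.0.16, R version 4.3.3): glmQLFit and glmQLFTest after TMM and filterByExpr, adjusted over all genes. The gate's own markers were left out of counts of calls. CPM are UMIs per 1000000 of the class, and SD is over embryos. SE is an approximate error of the log2 fold change. It is the absolute log2 fold change divided by the square root of the quasi-likelihood F statistic. Cell shares have exact (Clopper-Pearson) 95% intervals, and a share of 0 the limit of 3 counts. The 2 sums compared come from the same animal, and their deviations from the class means correlated by 0.13 to 0.353 across genes. Alternatives were a block for the embryo, DESeq2 (version 1.42.0), RLE factors, no filter, other gates, thinning to 5000 UMIs and leaving out each embryo. Thinning after gating of crown-marked cells was added after the data were seen. Full statistics are printed for the 15 largest changes in LRO cells, for members called against axial mesoderm, for up to 3 per lineage and for paralogs. Other members were named after their values were seen. Coordinates are from GENCODE (vM21, GRCm38), and coding sequences from its transcripts. Tests were tried on simulated counts.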

Additional observations from a re-analysis of the deposited data

How the results depend on the processing

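In LRO cells against other cells, the 17 axonemal genes called higher numbered 16 or 17 in every alternative, and Dynlrb2, Dync2h1, Dync2li1, Dnaaf1 and Dnaaf3 held throughout. The class through which genes passed the filter on low counts was not examined in the alternatives. The single lower cytoplasmic call became 0 with RLE factors, with a gate of 3 or of 5 markers and without any 1 embryo, and 2 with the embryo as a replicate block and with cells thinned. Higher cytoplasmic calls (4) were 3 without any 1 embryo. Against axial mesoderm, the 11 axonemal calls became 1 with cells thinned, where Dnah5 alone of these genes was still tested, and 9 to 15 without an embryo. The 3 cytoplasmic calls stayed at 3 without any embryo. In crown-marked cells 0 genes were called throughout, and the comparison with cells thinned before gating was not run because too few crown-marked cells were left.

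Of the calls across lineages, the 56 higher became 17 and the 42 lower 13 with cells thinned, and 38 to 45 and 19 to 31 without an embryo. The lower calls were 26 without embryo 2, 19 without embryo 3 and 18 with a lineage gate of 5 of 6 markers. With the replicate block the higher calls across lineages were 75 and the lower 52, and of the main calls only Dnah2 in erythroid cells was lost (1 UMI). In the comparisons of LRO cells the block changed no call beyond those given for Dync1h1 and Dynll1. The axonemal ratio between deep and shallow LRO cells was 0.808 to 0.984 and the cytoplasmic ratio 2.36 to 2.57 without an embryo. The median share of LRO cells with a UMI of an axonemal gene was 27.9%, or 8.37% with cells thinned. For single genes, 14 values against other cells and 7 against axial mesoderm lost their call, and 7 and 3 gained one. No called gene changed direction. The causes were not tested. Depth limits the low genes most: Dnah14, Dnah8 and Dnah17 cannot be judged in LRO cells, and classes of 15 to 45 cells carry few UMIs per gene.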
